A study of Homo sapiens with 12 samples.

Results

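Aminoacyl-tRNA synthetases are the enzymes that load each amino acid onto its tRNA, the step that supplies ribosomes with charged tRNA. The 38 genes described here were picked by name from the 20212 genes of the deposited count table, and all 38 were found. They are 22 cytosolic members, which include the scaffold proteins AIMP1 and AIMP2, and 16 mitochondrial members. Of the cytosolic members, 10 belong to the multi-synthetase complex and 12 act outside it. The cells were PANC-1, an established human pancreatic ductal carcinoma line with the same genetic background in every culture and no engineered allele named in the labels. One group was treated with DMSO, the solvent, and the other with 50 nM rapamycin, an inhibitor of the mTORC1 kinase, and collected after 60 min. Each treatment had 3 cultures labelled as biological replicates, and each of the 6 cultures gave an RF library (ribosome-protected fragments) and a total RNA library, so there were 12 libraries. Libraries of a treatment with the same number were taken as the same culture. The comparison asks which mRNAs carry more or fewer ribosomes after mTORC1 is inhibited, in a single line at a single dose and time.

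Cytosolic and mitochondrial protein synthesis use separate sets of these enzymes, and the mitochondrial ones are encoded in the nucleus, mostly by genes whose names end in 2, translated in the cytosol and imported. KARS and GARS are exceptions, since each gene encodes both forms, and EPRS charges glutamate and proline with a single protein. In the multi-synthetase complex, several synthetases are held together by AIMP1, AIMP2 and a further small scaffold protein. Transcription of many cytosolic synthetase genes is raised by ATF4, the transcription factor of the amino acid response, whose own synthesis depends in part on mTORC1.

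The RF libraries held 278835 to 1574723 counts on protein-coding genes and the total RNA libraries 78081241 to 94293744. The smallest RF libraries were DMSO replicate 1, with 303220 counts, and rapamycin replicate 3, with 278835. The limit that 0 counts allow is 3 counts, or 1.91 to 10.8 CPM in the RF libraries when scaled to library size alone. All other CPM are counts scaled to library size with edgeR's TMM factors. On that scale, 3 counts in the RF library of rapamycin replicate 3 are 9.99 CPM. Such limits cover counting error only, as the reads carry no molecular identifiers. Total RNA libraries 1 and 2 of DMSO detected 16840 and 16858 genes, and the other 4 detected 19751 to 19847. Of 10 duct epithelial markers, 8 had a mean of at least 1 FPKM (fragments scaled to transcript length and library size). Of 4 acinar and 3 endocrine markers, 0 reached that level. Of 3 immune markers, 1 did (CD68, with 78.7 FPKM), and of 4 fibroblast markers, 1 did (COL1A1, with 1.05).

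Levels in DMSO cultures are given first, per length so that genes can be compared. In total RNA, the cytosolic members ranged from a mean of 27.7 FPKM for AIMP1 to 190 for TARS, the threonyl-tRNA synthetase, with a median of 76.1. The mitochondrial members ranged from 2.39 FPKM for PARS2, the mitochondrial prolyl-tRNA synthetase, to 75.3 for SARS2, the seryl enzyme, with a median of 14.3. In RF, expressed as CPM per kilobase of coding sequence, the cytosolic members ran from 25.6 for VARS, the valyl enzyme, to 139 for GARS, the glycyl enzyme, with a median of 57.8. The mitochondrial members had a median of 6.21 on this RF scale and ran from 1.55 for WARS2, the tryptophanyl enzyme, to 41.8 for IARS2, the isoleucyl enzyme. The classes therefore overlapped in both measures, with most mitochondrial members lower.

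Among complex members, MARS, the methionyl enzyme, had the highest mRNA level, with 133, 139 and 135 FPKM in DMSO and 134, 135 and 136 in rapamycin. IARS, the cytosolic isoleucyl enzyme, had 101, 99.6 and 98.8 FPKM in DMSO and 99.0, 99.3 and 97.3 in rapamycin. The treatments overlapped for both genes in FPKM. The mean of IARS was above that of EPRS in DMSO, at 99.7 against 99.0, and below it in rapamycin, at 98.5 against 103. QARS, the glutaminyl enzyme, had 68.2, 71.5 and 63.8 FPKM in DMSO and 64.6, 67.5 and 66.4 in rapamycin. AIMP1, a scaffold of the complex, had 31.8, 24.9 and 26.3 FPKM in DMSO and 27.3, 21.4 and 26.1 in rapamycin. AIMP1 and QARS overlapped between treatments. AIMP2, the partner scaffold, had 74.8, 72.2 and 71.5 FPKM in DMSO and 71.0, 66.1 and 70.8 in rapamycin. Every rapamycin culture was lower for AIMP2 in FPKM, but its CPM overlapped, with 50.6, 48.0 and 52.0 in rapamycin. The share of all genes that did not overlap in FPKM was not computed. The order of the scaffolds is uncertain, since the counts of the same libraries gave 66.1, 58.9 and 59.5 CPM for AIMP1 and 51.6, 53.8 and 51.8 for AIMP2 in DMSO, over coding sequences of 936 and 960 bases. The ratio of FPKM to CPM per kilobase was 0.421 for AIMP1, the lowest of the members, and 1.33 for AIMP2, and 29.1% of AIMP2 exon bases overlap EIF2AK1 on the opposite strand.

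Outside the complex, TARS had 192, 181 and 197 FPKM in DMSO and 185, 170 and 189 in rapamycin. GARS had 153, 154 and 154 FPKM in DMSO and 154, 159 and 153 in rapamycin. TARS and GARS had the highest FPKM of all 38 members in every culture, and the treatments overlapped for each. FARSA and FARSB, the catalytic and the other subunit of the phenylalanyl enzyme, were the lowest of this class. FARSA had 30.7, 30.4 and 31.3 FPKM in DMSO and 32.1, 29.9 and 31.5 in rapamycin. FARSB had 37.7, 39.5 and 36.9 in DMSO and 39.0, 39.2 and 38.3 in rapamycin. Per culture, the FARSA level was 0.771 to 0.848 times that of FARSB in DMSO and 0.763 to 0.823 times in rapamycin, so the subunits kept nearly the same mRNA ratio in all 6 cultures.

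Among mitochondrial members, IARS2 had 74.9, 68.6 and 70.9 FPKM in DMSO and 69.4, 66.7 and 69.5 in rapamycin. PARS2 had 2.48, 2.37 and 2.32 FPKM in DMSO and 2.23, 2.17 and 2.60 in rapamycin. WARS2 had 4.07, 4.44 and 5.11 in DMSO and 5.20, 5.74 and 5.80 in rapamycin, with every rapamycin culture above every DMSO culture in this measure. SARS2 was listed with 76.0, 76.9 and 72.9 FPKM in DMSO and 75.0, 72.4 and 77.2 in rapamycin. The SARS2 FPKM are uncertain. They were 4.35 times the RNA CPM per kilobase of coding sequence from the counts, where the ratio of the other members was at most 1.33, and 1492 of its 3098 exon bases are shared with a readthrough gene on the same strand. What this overlap did to the SARS2 counts, which its RF and TE values rest on, was not tested.

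Each of 16 mitochondrial members was set beside the cytosolic member for the same amino acid, with FARSA beside FARS2 and EPRS beside both EARS2 and PARS2. In the DMSO means, the cytosolic mRNA level was higher in 16 of 16 pairs, by a median of 4.25-fold, from 1.01-fold for SARS over SARS2, whose FPKM are uncertain, to 41.4-fold for EPRS over PARS2. RF per kilobase was higher for the cytosolic partner in 14 of 16 pairs, by a median of 7.16-fold. The exceptions were IARS over IARS2, at 0.952, and VARS over VARS2, at 0.739. In single cultures, RF per kilobase of VARS and VARS2 was 26.0 and 36.7, 21.1 and 39.6, and 29.7 and 27.7 in DMSO replicates 1, 2 and 3, so the order held in 2 of the 3. In rapamycin the order was the opposite, with means of 30.8 for VARS and 13.8 for VARS2.

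Footprints relative to mRNA also differed among members. The log2 ratio of RF per kilobase to FPKM in DMSO was set against the median of 10558 genes. AIMP1, whose FPKM are uncertain, was highest, at 1.63 above that median, and VARS2 followed, at 1.46 above. With RF and RNA both taken from the counts, AIMP1 was below VARS2 and AIMP2, with mean log2 TE in DMSO of 0.30, 0.79 and 0.68. In the ratio to FPKM, FARSA and FARSB were at 0.74 and 0.64. LARS, the leucyl enzyme of the complex, was the lowest cytosolic member, at -1.48. Of the 22 cytosolic members 7 lay above the median of all these genes, and of the 16 mitochondrial members 3 did. Spearman's rho between RF per kilobase and FPKM in DMSO was 0.791 over the 38 members and 0.706 over the 10558 genes. It was 0.483 over the 22 cytosolic and 0.576 over the 16 mitochondrial members, and -0.321 over the 10 members of the complex. These are descriptions over genes, which share libraries and depth, and carry no test.

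**Figure D1:**
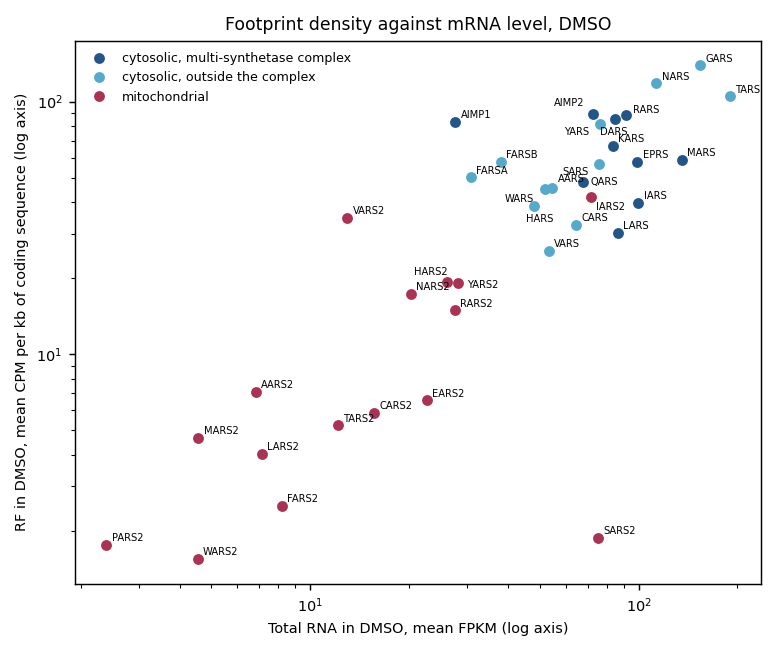
Each point is a member, with its mean FPKM in the 3 DMSO total RNA libraries on the x axis and its mean RF in CPM per kilobase of coding sequence in the 3 DMSO RF libraries on the y axis, both on log axes, coloured by class. Most mitochondrial members lie at the lower left, VARS2 and AIMP1 lie high for their mRNA level, and SARS2, whose FPKM are uncertain, lies low.

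Promoter windows from RefSeq (250 bases before to 50 after the annotated start, from a table on GRCh38.p14) were available for 18 cytosolic and 14 mitochondrial members, and LARS, DARS, VARS, YARS, AARS2 and VARS2 were without an entry. The windows were searched on both strands for TGATGCAA, the core letters of the element through which ATF4 acts in many amino acid response genes. These letters were in a window of 6 of the 18 cytosolic members, of 0 of the 14 mitochondrial members and of 295 of 27305 genes of the table (1.08%), or in 304 of its 35116 promoters (0.866%), since some genes have several. The looser TGATGNAA, which contains the former, was in 7 of 18, in 1 of 14 (YARS2) and in 4.46% of genes and 3.62% of all promoters, and GARS was the added cytosolic member. The 6 matches are printed here on the strand of each gene, 5′ to 3′, as the common sequence feature of a set whose RNA is compared further on, with the match or its reverse complement in capitals. Each was placed on GRCh37 by exact match, at chr9:95055975-95056002 (minus strand) for IARS, chr12:57881837-57881864 (plus) for MARS, chr16:70323579-70323606 (minus) for AARS, chr11:3078638-3078665 (minus) for CARS, chr18:55289037-55289064 (minus) for NARS and chr5:33441063-33441090 (plus) for TARS.
IARS: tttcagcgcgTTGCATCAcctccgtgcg
MARS: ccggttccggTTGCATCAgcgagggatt
AARS: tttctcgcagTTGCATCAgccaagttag
CARS: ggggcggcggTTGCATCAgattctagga
NARS: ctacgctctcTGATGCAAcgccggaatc
TARS: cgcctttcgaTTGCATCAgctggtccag

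In CARS, MARS, IARS, TARS and NARS the match lay close to the annotated start, with its first base at position -2, -4, -13, 3 and 15 counted from it, and in AARS at -187. A match is a description of these letters and not a bound site. The 6 members with the letters had a median of 106.5 FPKM in DMSO (54.5 to 190), and the 12 without them in the table had a median of 70.3 (27.7 to 154), so the ranges overlapped.

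A TOP motif, the start of mRNAs whose translation is the best known target of mTORC1, was sought as a C at the annotated start followed by 4 pyrimidines. It stood at a start of 1404 of 27305 genes of the table (5.14%) and of 1429 promoters (4.07%), of QARS among the cytosolic members and of WARS2 among the mitochondrial members. The first 16 bases after the RefSeq start are shown for QARS, at chr3:49142175-49142190 (minus strand), with the motif in capitals, and for NARS, at chr18:55289053-55289068 (minus strand), as the cytosolic member with the smallest edgeR p in TE.
QARS: CTTTTagtttccggtg
NARS: agatctacgctctctg

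Annotated starts can differ from those used in these cells, and no match says only that the letters are not at this position. QARS had RF of 114, 87.6 and 135 CPM in DMSO and 106, 83.6 and 93.3 in rapamycin, with the treatments overlapping. TE of QARS differed by -0.22 on the log2 scale (standard error 0.256, edgeR adjusted p = 0.768). TE is translational efficiency, the footprints on a gene relative to its mRNA, and a log2 fold change is rapamycin over DMSO throughout.

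The change in TE was tested for the 13329 genes with at least 10 counts in each library type, with the library type by treatment term of an edgeR quasi-likelihood model over all libraries. All 38 members passed this filter. At an adjusted p under 0.05 (Benjamini-Hochberg over all genes), 0 of the 22 cytosolic and 0 of the 16 mitochondrial members were called, against 0% of all genes tested. The smallest adjusted p of a member was 0.224. TE was lower in rapamycin for 11 cytosolic members and higher for 11. The median of their log2 fold changes was -0.01, beside -0.06 for all genes, of which 53.7% were lower. At an unadjusted p under 0.05, 1 cytosolic member was lower and 0 were higher, and 2 mitochondrial members were lower and 3 higher, against 6.42% of all genes lower and 6.17% higher. DESeq2's Wald test on the same counts called 2 cytosolic and 3 mitochondrial members at an adjusted p under 0.05, where it called 4.55% of all genes lower and 5.07% higher. The joint model gives both library types a common spread although RF varied far more between cultures, so RF was also tested alone.

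The cytosolic members were little different between treatments as a class. The 95% interval of the log2 fold change in TE lay within 1 of 0 for 18 of the 22. With RF tested alone, which does not share its spread with total RNA, the interval did so for 13 of the 22. Fold changes ran from -1.02 for NARS to 0.41 for CARS, the cysteinyl enzyme, and the next lowest after NARS was RARS, the arginyl enzyme of the complex, at -0.62 (standard error 0.313, edgeR adjusted p = 0.431). Without rapamycin replicate 1, CARS was at 0.07 and RARS at -0.94, and without DMSO replicate 3, CARS was at 0.72. In the complex 6 of 10 members were lower, with a median of -0.12, and outside it the median of the 12 was 0.11. Summed over the cytosolic members, RF was 2723, 3017 and 3064 CPM in DMSO and 3263, 2467 and 2245 in rapamycin. The sums overlapped, with the highest and the lowest values both in rapamycin. Tested alone, RF was lower for 13 cytosolic members, with a median of -0.05 on the log2 scale, where 48.5% of the 13343 genes tested were lower and the median of all was 0.02.

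**Figure D2:**
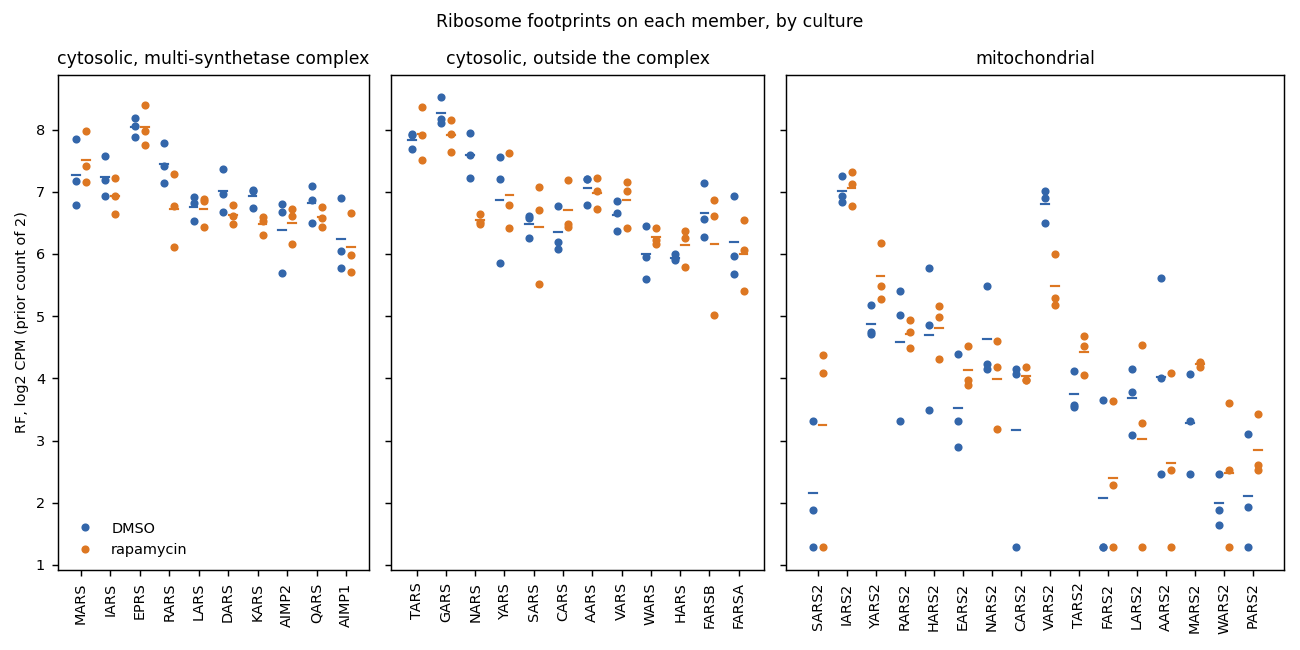
RF of each member in each of the 6 cultures, as log2 CPM with a prior count of 2 on the y axis, with members ordered within each class by mean FPKM in DMSO and short lines at the means of 3 cultures. The treatments do not overlap for NARS, KARS, VARS2, YARS2 and MARS2, and the spread is widest in mitochondrial members with few counts, such as SARS2, FARS2 and AARS2.

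NARS (ENSG00000134440), the cytosolic asparaginyl-tRNA synthetase, spans positions 55267888 to 55289445 of chromosome 18 (GRCh37). RF counted it 62, 195 and 217 times in DMSO and 117, 73 and 26 times in rapamycin, or 191, 244 and 147 CPM against 97.0, 88.5 and 86.6. DMSO had a mean of 194 ± 48.3 CPM (SD, n = 3) and rapamycin a mean of 90.7 ± 5.53 CPM (SD, n = 3), and no rapamycin culture reached the level of a DMSO culture. Its total RNA was 319, 316 and 311 CPM in DMSO and 321, 270 and 295 in rapamycin, and these overlapped. TE differed by -1.02 on the log2 scale (standard error 0.244, 95% interval -1.54 to -0.49, edgeR adjusted p = 0.224). RF alone differed by -1.09 (standard error 0.295, 95% interval -1.71 to -0.47, edgeR adjusted p = 0.9999). Both had an unadjusted p under 0.05. In TE, every rapamycin culture was lower for NARS and for KARS among the cytosolic members, and for 5.75% of all genes, and the same was true in RF, with 4.2% of all genes (two-sided exact permutation test for each gene, p = 0.1, which is the lowest p possible with 3 cultures per treatment). Of 15 alternative analyses, 2 gave NARS an adjusted p under 0.05 in TE and 13 did not. The 2 were DESeq2's Wald test (0.00372) and edgeR without DMSO replicate 3 (0.0231). With limma voom and variances by library type, 0 cytosolic members were lower at an unadjusted p under 0.05.

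The share of NARS within the cytosolic members does not depend on how the libraries are scaled. NARS held 7.01% of the cytosolic members' RF counts in DMSO replicate 1 (exact 95% interval 5.42% to 8.90%, counting error only), 8.09% in replicate 2 (7.03% to 9.25%) and 4.81% in replicate 3 (4.21% to 5.48%). In rapamycin the shares were 2.97% (2.46% to 3.55%), 3.59% (2.82% to 4.49%) and 3.86% (2.54% to 5.60%), all below the DMSO shares. In total RNA the share was 5.77% to 5.85% in DMSO and 5.28% to 6.03% in rapamycin, and the treatments overlapped.

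KARS (ENSG00000065427), the lysyl enzyme of the complex on chromosome 16 from 75661372 to 75682541, had RF of 126, 129 and 104 CPM in DMSO and 90.4, 94.6 and 76.6 in rapamycin. Its total RNA was 199, 211 and 199 CPM in DMSO and 197, 193 and 196 in rapamycin. Both measures were lower in every rapamycin culture, by far less in RNA. KARS differed by -0.40 in TE (log2, standard error 0.216, edgeR adjusted p = 0.470) and by -0.44 in RF alone (standard error 0.312). IARS, which DESeq2's Wald test called in TE (adjusted p = 0.0112), had RF of 120, 189 and 143 CPM in DMSO and 119, 97.0 and 147 in rapamycin. These values overlapped, and edgeR gave a log2 fold change in TE of -0.35 (standard error 0.233, adjusted p = 0.565).

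The other cytosolic members named for their level had overlapping RF. MARS had 108, 143 and 227 CPM in DMSO and 250, 167 and 140 in rapamycin. TARS had 203, 240 and 239 CPM in DMSO and 326, 239 and 180 in rapamycin. GARS had 287, 273 and 366 CPM in DMSO and 284, 240 and 197 in rapamycin. The log2 fold changes in TE were 0.18 for MARS, 0.21 for TARS and -0.36 for GARS, with edgeR adjusted p of 0.858, 0.756 and 0.492.

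The paired subunits varied more in RF than in mRNA, but their RF rested on few counts. In rapamycin replicate 3, FARSA had 12 RF counts, FARSB 9 and AIMP1 15, and in DMSO replicate 1 AIMP2 had 16. Each had at least 3793 counts in every total RNA library. How much of the spread in RF is counting error was not tested. FARSA had RF of 120, 60.0 and 48.9 CPM in DMSO and 91.2, 64.3 and 40.0 in rapamycin, and FARSB had 92.4, 139 and 74.7 in DMSO and 114, 95.8 and 30.0 in rapamycin. Per kilobase, the ratio of FARSA to FARSB was 1.51, 0.501 and 0.759 in DMSO and 0.924, 0.778 and 1.55 in rapamycin, with both treatments spanning 1. AIMP1 had RF of 117, 52.5 and 63.9 CPM in DMSO and 98.6, 60.6 and 50.0 in rapamycin. AIMP2 had 49.3, 109 and 99.9 in DMSO and 95.3, 69.1 and 103 in rapamycin. The AIMP1 to AIMP2 ratio per kilobase was 0.495 to 2.44 in DMSO and 0.496 to 1.06 in rapamycin, while the ratio of their FPKM was 0.345 to 0.425 and 0.324 to 0.385. The log2 fold changes in TE were 0.10 for AIMP1, 0.00 for AIMP2, -0.04 for FARSA and -0.24 for FARSB, and their 95% intervals lay between -1.17 and 0.99.

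**Figure D3:**
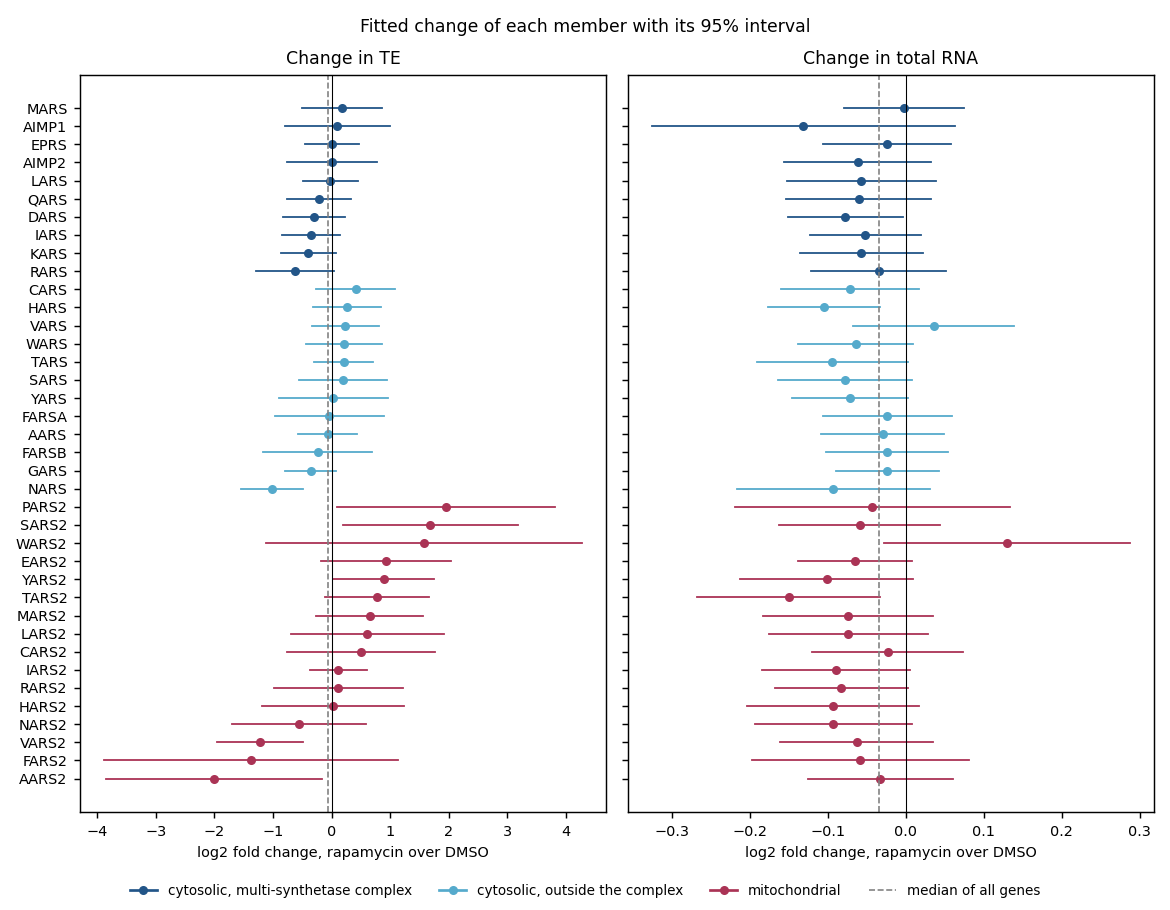
Points are the fitted log2 fold changes of TE (left) and total RNA (right) for each member, with 95% intervals from edgeR, and the dashed line is the median of all genes in TE and of genes at a mean of 1 FPKM or more in total RNA. Mitochondrial members have the widest intervals in TE, and in total RNA 36 of 38 points lie below 0 on an axis that spans less than 0.4 to either side.

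Of the mitochondrial members, 4 had a lower and 12 a higher TE, and their median was 0.55 on the log2 scale. They also had far fewer footprints. Their RF counts over all 6 libraries had a median of 68, against 539.5 for the cytosolic members, 7 of the 16 were at 0 in at least 1 RF library, and only 1 interval lay within 1 of 0. Of the 16, 7 had under 60 RF counts in all, and over the 9 others the median in TE was 0.11. For LARS2 and FARS2 the fitted sign differed from that of the mean log2 TE of the cultures. LARS2 was fitted at 0.61, with means of -1.37 in DMSO and -1.94 in rapamycin. FARS2 was fitted at -1.37, with means of -1.085 in DMSO and -0.70 in rapamycin. Summed RF of the class was 453, 408 and 420 CPM in DMSO and 419, 383 and 390 in rapamycin, which overlapped. In RF alone the median was 0.31, 7 members were lower and 9 higher, and 0 were called at an adjusted p under 0.05, against 0.00749% of all genes. RF alone gave an unadjusted p under 0.05 to 1 mitochondrial and 1 cytosolic member, both lower, where 1.9% of all genes were lower and 1.79% higher at that p. With the culture as a block in the TE model, 1 mitochondrial member was lower and 0 were higher at an unadjusted p under 0.05.

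VARS2 (ENSG00000137411), the mitochondrial valyl-tRNA synthetase, spans positions 30881982 to 30894236 of chromosome 6. RF counted it 38, 101 and 130 times in DMSO and 74, 28 and 11 times in rapamycin, or 117, 126 and 88.3 CPM against 61.3, 33.9 and 36.6. DMSO had a mean of 111 ± 19.8 CPM (SD, n = 3) and rapamycin a mean of 44.0 ± 15.1 CPM (SD, n = 3), with every rapamycin culture lower. Its total RNA was 62.4, 67.5 and 64.0 CPM in DMSO and 61.2, 60.0 and 64.4 in rapamycin, and the treatments overlapped. TE differed by -1.22 on the log2 scale (standard error 0.345, 95% interval -1.96 to -0.48, edgeR adjusted p = 0.231). RF alone differed by -1.29 (standard error 0.385, 95% interval -2.11 to -0.48, edgeR adjusted p = 0.9999), and both had an unadjusted p under 0.05. VARS2 had the smallest adjusted p of the members in DESeq2's Wald test for TE, 0.000885, and was under 0.05 in that 1 of 15 alternatives. It held 25.9%, 31.0% and 21.0% of the class's RF counts with DMSO and 14.6%, 8.86% and 9.40% with rapamycin, and 7.06% to 7.80% and 7.38% to 7.70% of their RNA counts. The cytosolic VARS had RF of 98.6, 80.1 and 113 CPM in DMSO and 141, 126 and 83.3 in rapamycin, which overlapped.

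YARS2 (ENSG00000139131), the mitochondrial tyrosyl-tRNA synthetase on chromosome 12 from 32880424 to 32908831, was higher in rapamycin. RF counted it 11, 19 and 36 times in DMSO and 44, 35 and 21 times in rapamycin, or 33.9, 23.8 and 24.5 CPM against 36.5, 42.4 and 69.9. Each rapamycin culture was above each DMSO culture, the nearest by little, as was MARS2 in RF and 5.25% of all genes. TE differed by 0.89 on the log2 scale (standard error 0.401, 95% interval 0.03 to 1.75, edgeR adjusted p = 0.379), with an unadjusted p under 0.05. RF alone differed by 0.85 (standard error 0.516, 95% interval -0.24 to 1.94), with an unadjusted p above 0.05. DESeq2's Wald test, the 1 of 15 alternatives with an adjusted p under 0.05, gave 0.0150 for YARS2 in TE. Its total RNA was 40.0, 41.8 and 41.1 CPM in DMSO and 38.8, 35.6 and 40.1 in rapamycin, and these overlapped.

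**Figure D4:**
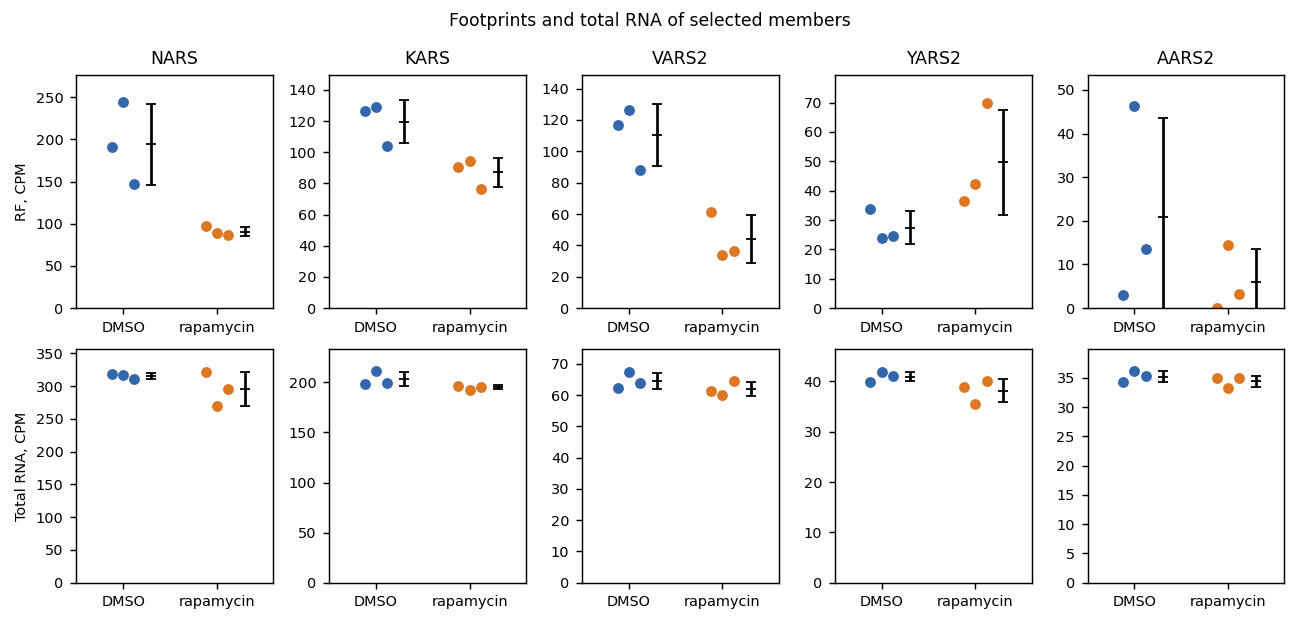
CPM of 5 members in RF (upper row) and total RNA (lower row), with a point per culture and the mean and SD of 3 cultures beside them, on axes from 0. NARS, KARS and VARS2 are lower and YARS2 is higher in every rapamycin culture in RF, and AARS2 overlaps with an SD in DMSO above its mean of 21.0 CPM.

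MARS2 and TARS2, the mitochondrial methionyl and threonyl enzymes, were also higher in TE in every rapamycin culture, which held for 5.21% of all genes. RF counted MARS2 1, 6 and 21 times in DMSO and 20, 13 and 5 times in rapamycin, or 3.08, 7.51 and 14.3 CPM against 16.6, 15.8 and 16.6. RF counted TARS2 3, 12 and 14 times in DMSO and 17, 17 and 7 times in rapamycin, or 9.24, 15.0 and 9.51 CPM against 14.1, 20.6 and 23.3. RF overlapped between treatments for TARS2 and not for MARS2. The log2 fold changes in TE were 0.65 for MARS2 and 0.78 for TARS2, with edgeR adjusted p of 0.559 and 0.459. Without DMSO replicate 3 they were 1.40 and 0.47.

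The remaining members at an unadjusted p under 0.05 in TE had few footprints and overlapping cultures. AARS2 (ENSG00000124608), the alanyl enzyme on chromosome 6 from 44266468 to 44281084, was counted 1, 37 and 20 times in DMSO RF and 0, 12 and 1 times in rapamycin RF, or 3.08, 46.3 and 13.6 CPM against 0, 14.6 and 3.33. TE differed by -2.01 on the log2 scale (standard error 0.859, edgeR adjusted p = 0.358). That value was -5.09 with rapamycin replicate 2 left out and -0.95 with rapamycin replicate 1 left out. SARS2 was counted 0, 1 and 11 times in DMSO RF and 22, 12 and 0 times in rapamycin RF, or 0, 1.25 and 7.47 CPM against 18.2, 14.6 and 0. Both treatments held a library at 0 for SARS2. TE differed by 1.68 on the log2 scale (standard error 0.697, adjusted p = 0.346 in edgeR and 0.0122 in DESeq2), and by 4.03 without DMSO replicate 3. In RF alone, neither AARS2 nor SARS2 had an unadjusted p under 0.05.

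PARS2, WARS2 and FARS2, the prolyl, tryptophanyl and phenylalanyl enzymes, had a treatment in which no RF library exceeded 3 counts. PARS2 was counted 2, 0 and 2 times in DMSO RF and 10, 3 and 1 times in rapamycin RF. Its ratio of summed counts, each divided by the summed TMM-scaled library sizes, was 3.89 (95% counting interval 1.22 to 16.2). WARS2 had 1, 1 and 1 in DMSO and 0, 8 and 1 in rapamycin, a ratio of 3.34 (0.833 to 19.2). FARS2 had 0, 0 and 15 in DMSO and 0, 2 and 3 in rapamycin, a ratio of 0.371 (0.105 to 1.07). These ratios weigh the deeper libraries more. As a mean CPM of cultures, FARS2 went the other way, at 3.4 in DMSO and 4.1 in rapamycin. PARS2 (2.5 and 5.1) and WARS2 (1.7 and 4.3) were higher in rapamycin by that mean too. Those intervals leave out the spread between cultures, and for all of these genes the cultures of the treatments overlapped. The fitted difference in TE was 1.95 for PARS2 on the log2 scale (edgeR adjusted p = 0.374, unadjusted under 0.05), and such a value is no bound.

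IARS2, with the most footprints of the class, was between 107 and 157 CPM in all 6 RF libraries, namely 120, 111 and 150 in DMSO and 157, 107 and 137 in rapamycin. TE of IARS2 differed by 0.11 on the log2 scale (standard error 0.230, 95% interval -0.38 to 0.61). The other mitochondrial members, CARS2, EARS2, HARS2, LARS2, NARS2 and RARS2, had between 54 and 123 RF counts in all and overlapped between treatments in RF, with log2 fold changes in TE from -0.55 for NARS2 to 0.93 for EARS2. HARS2 overlaps its cytosolic partner HARS head to head by 108 exon bases, and whether counting used the strand was not given in the sources used here, so a few reads of these genes may be exchanged.

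In total RNA, 0 of the 22 cytosolic and 0 of the 16 mitochondrial members were called by edgeR at an adjusted p under 0.05, as were 0% of 19630 genes, and DESeq2's Wald test also called 0 in each class. The smallest adjusted p of a member was 0.583 in edgeR and 0.328 in DESeq2 (HARS). At an unadjusted p under 0.05, 2 cytosolic members (DARS and HARS) and 1 mitochondrial member (TARS2) were lower and 0 were higher, against 4.97% of all genes lower and 3.35% higher. Small differences pointed mostly one way. The log2 fold change was below 0 for 21 of 22 cytosolic members, all but VARS, and for 15 of 16 mitochondrial members, all but WARS2, with medians of -0.06 and -0.07 and a range of -0.15 to 0.13. It was below 0 for 45.5% of all genes and for 70.6% of the 11297 genes at a mean of 1 FPKM or more, to which all members belong, and the median of those genes was -0.03. In a fit scaled on those genes alone, added after seeing the data, the medians were -0.02 for cytosolic and -0.03 for mitochondrial members. The 2 DMSO libraries with fewer genes detected move with treatment, and their part in these differences was not tested. All 38 intervals lay within 1 of 0.

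DARS, the aspartyl enzyme of the complex, had total RNA of 207, 199 and 202 CPM in DMSO and 196, 189 and 193 in rapamycin. HARS, the histidyl enzyme, had 120, 120 and 116 CPM in DMSO and 111, 111 and 110 in rapamycin. TARS2 had 28.4, 28.5 and 29.9 CPM in DMSO and 26.1, 24.4 and 27.6 in rapamycin. All rapamycin cultures were lower for each of these, with log2 fold changes of -0.08, -0.10 and -0.15 and an edgeR adjusted p of 0.583 for each. Every rapamycin culture was lower for 8 cytosolic and 7 mitochondrial members in all, and for 9.84% of all genes. That share was not computed for genes at a mean of 1 FPKM or more, to which all members belong. Of those genes 70.6% had a log2 fold change below 0, so the 9.84% does not show an excess among members. In RF, DARS had 163, 100 and 122 CPM in DMSO and 109, 95.8 and 86.6 in rapamycin, and HARS had 58.5, 61.3 and 57.1 in DMSO and 53.1, 73.9 and 79.9 in rapamycin. Both overlapped. Between the 6 cytosolic members with TGATGCAA and the 12 without, the median log2 fold change in total RNA was -0.06 in each, and in TE it was 0.06 and -0.02.

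Other genes of tRNA charging were taken from a list of 13 that includes EEF1E1, the further scaffold of the complex, the subunits of the glutaminyl-tRNA amidotransferase, enzymes of selenocysteine tRNA, proofreading enzymes, the CCA-adding enzyme TRNT1 and the exporter XPOT. In TE, RF and total RNA, 0 of the 13 were called by edgeR at an adjusted p under 0.05. At an unadjusted p under 0.05, 1 of the 13 was higher in TE, where 6.17% of all genes were, 2 were lower in total RNA, where 4.97% of all genes were, and 0 differed in RF. The former, SEPSECS, which converts phosphoseryl-tRNA to selenocysteyl-tRNA, had log2 fold changes of 1.98 in TE (standard error 0.780, edgeR adjusted p = 0.325) and 1.68 in RF alone (standard error 1.30). MTFMT, the mitochondrial methionyl-tRNA formyltransferase, and PSTK, the kinase that acts before SEPSECS, were the others (-0.18 and -0.13, edgeR adjusted p = 0.583 for both). EEF1E1 had a log2 fold change in TE of -0.30 (standard error 0.361), within the range of its complex partners.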

How the data were processed

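Per the labels, RF and total RNA of PANC-1 cultures treated with DMSO or rapamycin were sequenced, with 3 biological replicates each. The authors deposited raw counts per gene: they quality-filtered and linker-trimmed RF reads, removed ribosomal RNA reads, aligned to GRCh37 with HISAT2 and used featureCounts to count unique alignments within exons of protein-coding genes. The authors deposited FPKM of total RNA, made with Cuffnorm of Cufflinks 2.2.1, per the submitters' processing notes. Other versions are not given in the sources used here. Columns with the authors' own TE comparison (ratios, log2 fold changes, p-values) and the isoform and normalized count files were not used.

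Members were taken by gene name and located by Ensembl identifier in a GRCh37 annotation. The members, gene lists and tests were chosen with earlier results of these data known. The software was edgeR 4.0.16 (quasi-likelihood, robust, TMM within library type, at least 10 counts summed over libraries of a type), DESeq2 1.42.0 and limma 3.58.1 under R 4.3.3, with scipy 1.17.1 and pandas 2.3.3 under Python 3.11. Adjusted p-values are Benjamini-Hochberg over all genes tested. Scripts were tested on simulated data. A prior count of 2 was used for log2 TE in each culture. Values per library are given for members at an unadjusted p under 0.05, those whose treatments did not overlap in TE, the 2 highest and 2 lowest of each class in FPKM, and the paired subunits. Values per library of IARS and QARS in RF and of VARS were added after seeing the data.

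The alternatives were DESeq2's size factors and Wald test, count minimums of 1 and 60, limma voom with variances by library type, TMM over all 12 libraries, replicate and culture blocks, and single cultures left out. Total RNA was also tested by limma-trend on log2(FPKM + 1) and log2(FPKM + 0.1). Leaving out both smallest RF libraries, and a total RNA fit on genes at a mean FPKM of 1 or more, were added after seeing the data. No library was a duplicate of another of the same type and treatment, and pairs across treatments were not compared by that check. Single genes outside the members are in part not reported here.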

Additional observations from a re-analysis of the deposited data

How the results depend on the processing

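Of 16 fold changes of single members under 231 alternatives, 226 kept their direction and side of an adjusted p of 0.05, 5 passed it and 0 reversed. All 16 were uncalled in the main fit, and most were picked for a small unadjusted p or separated cultures in these data. The tally is therefore no measure of robustness, and sizes could move, as for AARS2 in TE, from -5.09 to -0.95. At an adjusted p under 0.05 in TE, DESeq2's Wald test called 2 cytosolic and 3 mitochondrial members. With each culture left out, edgeR called 0 to 1 cytosolic members, the 1 being NARS without DMSO replicate 3, and 0 mitochondrial members. No alternative called a member in RF or total RNA. The cytosolic median in TE was lowest, -0.22, without rapamycin replicate 1 and highest, 0.09, without rapamycin replicate 2, and in RF it was -0.288 and 0.0511 without the same cultures. The mitochondrial median in TE was 0.11 with at least 60 counts, which leaves 9 members, 0.31 with limma voom, and 0.31 (without DMSO replicate 2) to 0.62 with each culture left out. In RF it was -0.0358 with at least 60 counts and 0.03 (without DMSO replicate 2) to 0.54 with each culture left out. With the replicate number as a block it was 0.76. In total RNA the medians were -0.0214 (cytosolic) and -0.0320 (mitochondrial) when fitted on genes at a mean FPKM of 1 or more, chosen after seeing the data, and the cytosolic median went from -0.0638 to -0.0273 (without rapamycin replicate 2) with each culture left out. The cause of these shifts was not tested. At an unadjusted p under 0.05 in TE, 0 (limma voom) to 5 (DESeq2's Wald test) cytosolic members were lower, with 3 at a minimum of 60 counts, with TMM over all 12 libraries and without rapamycin replicate 1. Mitochondrial members at that p numbered 0 (leaving out both smallest RF libraries) to 3 (without DMSO replicate 3) lower and 0 (limma voom) to 5 (DESeq2's Wald test) higher, with 1 lower and 0 higher when culture was a block.

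RF and total RNA libraries of a treatment and number were taken as the same culture from their titles. The deviations of their genes correlated at -0.096 to 0.008. Same-numbered DMSO and rapamycin cultures share only a number, with deviations correlating at -0.118 to -0.061 in RF and -0.217 to -0.108 in total RNA, and neither block changed a call at an adjusted p under 0.05. RF depth limits what can be seen: a member at 0 counts in the smallest RF library could have 3 counts there, or 9.99 CPM.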
